A study of Drosophila melanogaster with 12 samples.

Results

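Ribosome assembly and nucleolar genes encode RNA polymerase I, the small nucleolar ribonucleoproteins that modify ribosomal RNA, and the factors that build and export the ribosomal subunits. A list of 38 gene symbols was drawn up by function, with earlier results of these data known, and a gene was used where a probe set was annotated to it alone. This held for 34 of the 38 genes, out of 10844 genes on the array, and for a gene with several probe sets the one with the highest mean log2 signal over the arrays was used. Polr1D, nop5 and Nmd3 were not analysed here, and hoip shared its probe set with pins and was kept out of the counts. vito, a nucleolar protein gene, had signals between 6.3 and 49.7 and did not pass the filter on low signals, so 33 genes were tested among 8978 features.

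The ribosome is assembled mainly in the nucleolus, where RNA polymerase I transcribes the large ribosomal RNA precursor. Small nucleolar ribonucleoproteins methylate and pseudouridylate the precursor. Helicases, GTPases and scaffold proteins help to fold it and join it with ribosomal proteins before the subunits leave for the cytoplasm. In the fly ovary this machinery is known to be busy in the growing egg chamber, and in many fly tissues the growth regulator Myc raises the transcription of its genes.

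The RNA came from ovaries of Drosophila females and was hybridised to 12 arrays, 3 biological repeats in each of 4 groups. Every group carried the driver slbo-Gal4 and UAS-mCD8-GFP, so the membrane tag CD8 was made wherever the driver was active, which is known to include border cells and the centripetal follicle cells. Wild-type females carried 1 chromosome with both transgenes (slbo-Gal4, UAS-mCD8-GFP/+). Mutant females had the driver with the allele slboe7b on 1 chromosome and the reporter with the allele slboLy6 on the other. Tagged cells, called migratory in the labels, and untagged cells, called nonmigratory, were separated with magnetic beads carrying an antibody to CD8. Females were 2 to 7 days old, except that 1 mutant nonmigratory array has no age or tissue label, and another has no genotype label and was placed by its title. slbo encodes a C/EBP transcription factor that border cells need in order to migrate between the nurse cells. The mutant cells labelled migratory are therefore the cells that carry the tag, whether or not they moved.

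Signals were MAS5 intensities scaled by the authors to trimmed means of about 150, and correlations between arrays of a group lay between 0.924 and 0.957. slbo itself checked the labels: its signals were 275, 197 and 167 in wild-type migratory cells, 115, 113 and 149 in wild-type nonmigratory cells, 44.3, 51.4 and 35.1 in mutant migratory cells, and 87.3, 19 and 82.9 in mutant nonmigratory cells. slbo was lower in mutant than in wild-type migratory cells by 2.09 on the log2 scale, called with a Benjamini-Hochberg adjusted p of 0.0130 by limma. Between the wild-type fractions its difference of 0.71 was not called (adjusted p = 0.342). sn, the fascin gene that border cells express strongly, averaged 479 in wild-type migratory and 269 in wild-type nonmigratory cells and was called higher in the former (log2 0.87, SE 0.224, adjusted p = 0.0230). It was the 1 gene called of 10 tested border and centripetal cell markers, whose median was 0.39 in the wild type and -0.038 in the mutant, where 0 were called. In the mean of both genotypes Stat92E (-0.52) and jing (-0.42) of this list were lower in migratory cells and not called.

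Genes of ribosome assembly were lower in the tagged migratory cells than in the untagged cells of the same genotype, and this held in the wild type and in the slbo mutant. In the wild type 18 of the 33 tested genes were called lower and 0 higher, where 4.92% of all 8978 features were called lower. In the mutant 19 of 33 were called lower and 0 higher, against 5.2% of all features, and 12 without the first mutant nonmigratory array. With each array of a genotype left out in turn, 14 of the 18 wild-type calls and 11 of the 19 mutant calls were made in all 6 fits. The others were Nopp140, Surf6, l(1)G0020 and pit in the wild type and Polr1B, Polr1C, nclb, Nop56, mbm, wcd, Bka and Dbp73D in the mutant. The share of all features called in fits with an array left out is not given here. A call means an adjusted p under 0.05 by limma, with Benjamini-Hochberg adjustment over all features of a comparison. The median log2 difference over the 33 genes was -0.95 in the wild type and -0.82 in the mutant, beside 0.011 and 0.029 over all features. In the mean of both genotypes, which uses all 12 arrays, 24 of 33 were called lower and 9 were not called (9.89% of all features lower), with a median of -0.87. Differences are on the scale of log2(signal + 7.50), which understates those of dim probe sets. The 5' to 3' signal ratio of the GAPDH control, a measure of RNA quality, was also lower in migratory cells. It was 0.0854 against 0.175 in the wild type and 0.119 against 0.165 in the mutant. With this ratio as a covariate 0, 6 and 2 genes were called in the wild type, the mutant and the mean. Over all 8978 features that fit called 6, 154 and 44 in either direction.

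Differences of at least 2-fold were called for 13 genes in the wild type (1.82% of all features) and 10 in the mutant (1.47%). For 27 genes every wild-type migratory array lay below every wild-type nonmigratory array, a pattern seen in 12.8% of all features, and for 26 genes the same held in the mutant (14.8%). The fraction comparisons of the 2 genotypes share no arrays, though they share 1 estimate of the spread. In both of them 14 genes were called lower, namely Polr1A, Polr1C, Polr1E, nclb, Fib, Nop56, NHP2, Nopp140, Nlp, mbm, bys, Non1, Nnp-1 and pit, where 3.02% of all features were called lower in both. The difference was negative for 32 of 33 genes in the wild type (48.9% of all features) and for 33 in the mutant (47.6%), the exception being eIF6 with the brighter of its 2 probe sets.

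The filter asked for a signal above the 40th percentile of the array, between 30.3 and 39.1, on at least 3 arrays. All 12 arrays exceeded it for 25 of the 33 genes, while l(1)G0020 and Dbp45A passed it with fewer than 3 migratory arrays and so could pass only with the help of nonmigratory arrays. With no filter, and vito included, 18 of 34 genes were called lower in the wild type, 15 in the mutant and 24 in the mean of both genotypes, where 745, 709 and 1433 of 12367 features were called in either direction. The filtered fits called 825, 801 and 1610 of 8978 features in either direction, of which 442, 467 and 888 were lower. The mutant calls not made without the filter were Polr1B, wcd, Bka and Dbp73D. In bulk RNA of this kind, fewer cells of a type and less RNA per cell cannot be told apart.

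**Figure D1:**
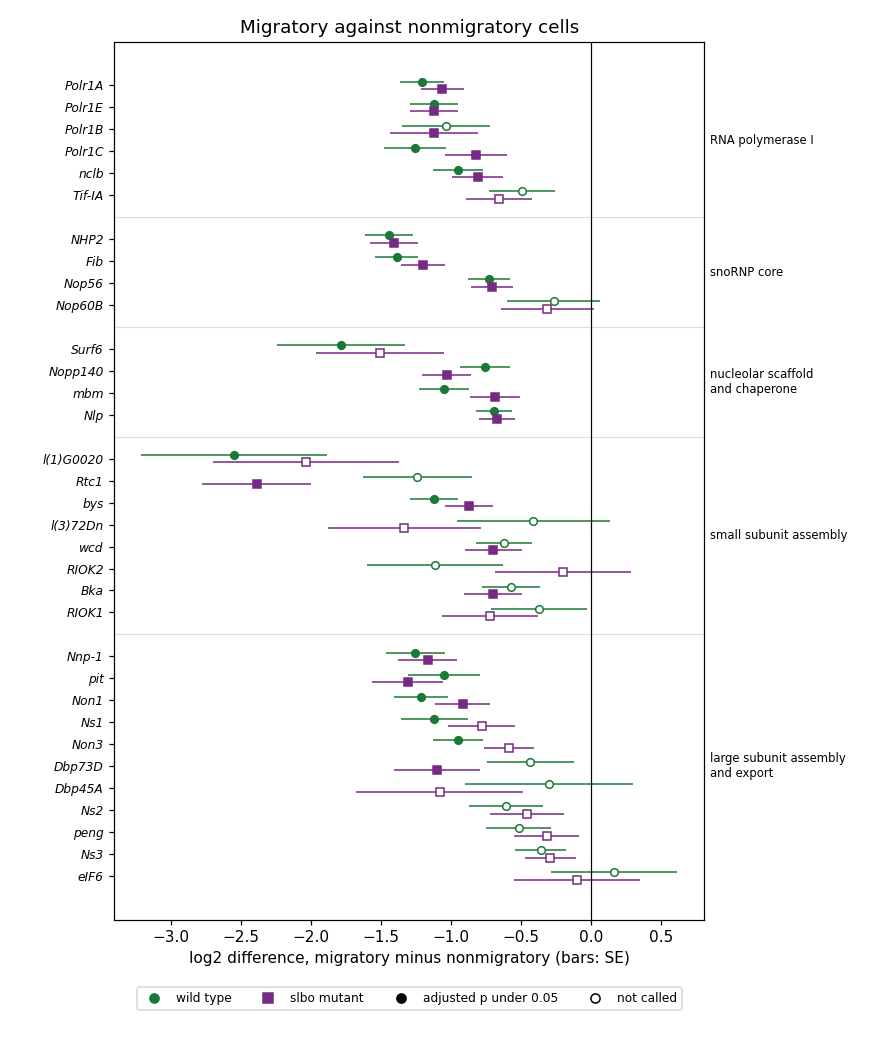
Log2 difference of migratory minus nonmigratory cells for the 33 tested genes, ordered by role, with SE as bars. Green circles are the wild type, purple squares the slbo mutant, and filled symbols have an adjusted p under 0.05; 32 genes lie left of 0 in the wild type and 33 in the mutant, and Surf6, l(1)G0020, RIOK2, Dbp45A and Dbp73D had a mean at or below background in at least 1 migratory group.

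RNA polymerase I and its cofactors were lower throughout, with 6 of 6 tested genes called in the mean of both genotypes, 4 of 6 in the wild type and 5 of 6 in the mutant. Of all features 9.89%, 4.92% and 5.2% were called lower in the same 3 comparisons. Polr1A encodes the largest, catalytic subunit. Its signals (probe set 153129_at) were 420, 513 and 512 in wild-type migratory cells and 882, 1303 and 1219.6 in nonmigratory cells, and 591, 535 and 589 against 1117, 1409.5 and 1102 in the mutant. The migratory and nonmigratory values did not overlap in either genotype, and Polr1A averaged a log2 difference of -1.14 over both (SE 0.11, adjusted p = 7.11e-06). Polr1B, the second largest subunit, gave 38.6, 64.5 and 71.3 against 127, 126 and 119.5 in the wild type and 76.5, 34.9 and 48.9 against 129, 151 and 87.9 in the mutant (probe set 141487_at). Its groups were also separate, with 1 migratory array of each genotype not above background. The difference of -1.12 was called in the mutant (adjusted p = 0.0379), and that of -1.04 in the wild type just missed the threshold (adjusted p = 0.0526).

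Polr1C encodes a subunit that RNA polymerases I and III share. Signals of Polr1C were 65.5, 91.1 and 92.3 against 203, 203 and 216 in the wild type and 95.5, 65.4 and 78.1 against 158, 127 and 154 in the mutant (probe set 141350_at). Both genotypes showed separate groups, with log2 differences of -1.26 (adjusted p = 0.00211) and -0.82 (adjusted p = 0.0302). Polr1E is the counterpart of a yeast subunit that aids initiation and elongation. It measured 155, 177 and 171 against 326, 384 and 417 in the wild type, and 224, 186 and 213 against 556, 459 and 380.2 in the mutant (probe set 153805_at). These were 2.17-fold and 2.18-fold decreases, nearly the same size in the 2 genotypes (adjusted p = 0.000783 and 0.00115).

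nclb encodes a chromatin protein that binds ribosomal DNA and that germline stem cells are known to need. Signals of nclb were 173, 161 and 179.9 against 405, 283 and 337 in the wild type and 175, 201 and 213 against 326, 302 and 430.4 in the mutant (probe set 154076_at), with no overlap in either. It was called in both, at -0.95 and -0.81 (adjusted p = 0.00379 and 0.0117). Tif-IA, the initiation factor that links RNA polymerase I to growth signals, was called only in the mean of both genotypes with the probe set used here (-0.58, SE 0.165, adjusted p = 0.0243), although its migratory and nonmigratory arrays did not overlap in either genotype.

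Among the core proteins of small nucleolar ribonucleoproteins, 3 of 4 tested genes were called lower in each genotype (4.92% and 5.2% of all features). NHP2 and Fib, 2 of these genes, had the lowest adjusted p-values of the whole list in the mean of both. NHP2 belongs to the box H/ACA particles, which guide pseudouridylation. Its signals were 147, 198 and 192 in wild-type migratory and 488, 538 and 465 in wild-type nonmigratory cells, and 187, 144 and 194 against 502, 510.2 and 417 in the mutant (probe set 142579_at). The highest of the 6 migratory values, 198, was less than the lowest of the 6 nonmigratory values, 417. NHP2 fell by 2.72-fold in the wild type and 2.66-fold in the mutant, with a log2 difference of -1.43 in the mean of both (SE 0.12, adjusted p = 2.58e-06).

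Fib is fibrillarin, the methyltransferase of the box C/D particles and the classical marker of the nucleolus. Fib signals were 1148, 1483 and 1594 against 3591, 4148 and 3316 in the wild type and 1585, 1148 and 1642 against 3722, 3315 and 2988 in the mutant (probe set 153601_at). The groups stood well apart, and Fib was 2.62-fold lower in wild-type and 2.3-fold lower in mutant migratory cells (adjusted p = 9.80e-05 and 0.000416). Nop56, another box C/D core protein, gave 682, 882 and 772 against 1165, 1454 and 1269, and 688, 544 and 797 against 1203, 1075 and 1025 in the mutant (probe set 153330_at). Nop56 differed less, at -0.73 in the wild type and -0.71 in the mutant, but was called in both (adjusted p = 0.00656 and 0.00838). Nop60B, the pseudouridine synthase of the H/ACA particles, had overlapping signals between 41 and 104 and a difference of -0.29 in the mean of both genotypes that was not called (SE 0.235, adjusted p = 0.458).

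The 4 tested scaffold and chaperone genes were each called lower in the wild type and in the mean of both genotypes, and 3 of the 4 in the mutant. Of all features 4.92%, 9.89% and 5.2% were called lower in these comparisons. Nopp140, a phosphoprotein that escorts small nucleolar ribonucleoproteins, measured 282, 331 and 425 against 488, 654 and 622 in the wild type and 232, 230.4 and 207 against 541, 465 and 397 in the mutant (probe set 153819_at). Its migratory values lay below the nonmigratory values of the same genotype, with differences of -0.76 (adjusted p = 0.0137) and -1.03 (adjusted p = 0.00259). Nlp encodes a nucleoplasmin, a histone chaperone that is also found at the nucleolus. Nlp signals were 1389.6, 1709 and 1462 against 2095, 2761 and 2561 in the wild type and 1998, 1723 and 1916 against 2908, 3419 and 2695 in the mutant (probe set 153883_at). The 2 differences were alike, -0.70 and -0.67, and both were called (adjusted p = 0.00333 and 0.00518).

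mbm encodes a nucleolar protein that fly neuroblasts need for small subunit production and growth. Its signals were 192, 184 and 297 against 477, 471 and 439 in the wild type and 294, 381 and 284 against 517, 487 and 542 in the mutant (probe set 153448_at), separate in both. mbm fell by 2.07-fold and 1.61-fold (adjusted p = 0.00185 and 0.0277). Surf6, whose mammalian counterpart is a nucleolar factor of ribosomal RNA processing, gave 13.8, 46.5 and 31.6 against 71.8, 109 and 194 in the wild type and 15.9, 38 and 42.8 against 137, 113 and 63.6 in the mutant (probe set 143036_at). Its mean migratory signals, 30.6 and 32.2, did not exceed the background of 36.7 and 41.6, which is the mean 95th percentile of 23 control probe sets for sequences absent from the sample. With dim migratory signals raised to that background, the estimated decrease of Surf6 was 2.60-fold in the wild type and 2.06-fold in the mutant. These estimates do not allow for the spread between arrays. The limma fit to the signals themselves called Surf6 in the wild type (adjusted p = 0.0222), and it missed the threshold in the mutant (adjusted p = 0.0532).

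For small subunit assembly 5 of 8 tested genes were called lower in the mean of both genotypes (9.89% of all features). In the wild type 2 were called lower (4.92% of all features), and in the mutant 4 (5.2%). bys is the fly bystin, a component of the precursor of the small subunit. bys signals were 175, 204 and 197 in wild-type migratory and 412, 412 and 455 in wild-type nonmigratory cells, against 175, 221 and 287 and 423, 428 and 396 in the mutant (probe set 153812_at). The groups did not overlap, and the differences of -1.12 and -0.87 were called (adjusted p = 0.000795 and 0.00556). Rtc1, the relative of a yeast protein that helps cleave the ribosomal RNA precursor, measured 39.3, 127 and 194 against 198, 278 and 279.6 in the wild type and 45.8, 41.9 and 39.1 against 273, 282 and 210.1 in the mutant (probe set 141535_at). Its mutant migratory arrays were tightly grouped and low, while the wild-type migratory arrays spread from near background almost to the lowest nonmigratory value. The mutant migratory mean, 42.3, was close to the background of 41.6. Rtc1 fell by 5.24-fold in the mutant (adjusted p = 0.00185), and its 2.37-fold lower mean in the wild type was not called (adjusted p = 0.0608).

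l(1)G0020 encodes the relative of the human and yeast enzyme that acetylates the small subunit RNA. Its signals were 10.3, 17.2 and 10.2 against 159, 242 and 30.2 in the wild type and 15, 19.5 and 19.9 against 108, 240.4 and 32.8 in the mutant (probe set 144714_at). No migratory array was above background, and the nonmigratory arrays were themselves uneven, with 1 of 3 in each genotype below background. With dim migratory signals raised to background, the estimated decrease of l(1)G0020 was 2.68-fold in the wild type and 2.16-fold in the mutant. These estimates do not allow for the spread between arrays. The limma fit to the signals themselves called it in the wild type (adjusted p = 0.0243) and not in the mutant (adjusted p = 0.0712). l(1)G0020 passed the filter on 0 migratory and 4 nonmigratory arrays, so it was tested only through the fraction where it was high. wcd, of the U3 particle that helps to cut the precursor, and Bka were called in the mutant at -0.70 and -0.70 (adjusted p = 0.044 and 0.048). They were not called in the wild type, at -0.62 and -0.57 (adjusted p = 0.0714 and 0.106). l(3)72Dn and the kinases RIOK1 and RIOK2, which act on late small subunit precursors, were called in no comparison. Their differences in the mean of both genotypes were -0.87, -0.55 and -0.66, with SE of 0.386, 0.241 and 0.341.

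For large subunit assembly and export 6 of 11 tested genes were called lower in the mean of both genotypes (9.89% of all features). In the wild type 5 were called lower (4.92% of all features), and in the mutant 4 (5.2%). Non1 is a nucleolar GTPase of large subunit assembly. Its signals were 1116, 2108 and 1249 against 3485, 3335 and 3205 in the wild type and 1642, 1409 and 2179 against 3240.3, 3209 and 3288 in the mutant (probe set 142696_at). Every migratory array lay below every nonmigratory array, and the differences of -1.22 and -0.92 were called (adjusted p = 0.00115 and 0.00858). A second Non1 probe set, with signals between 32.1 and 175, showed -0.29 in the mean of both genotypes and was not called, and averaging the log2 values of both probe sets moved Non1 from -1.07 to -0.68.

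Nnp-1 is the fly relative of yeast Rrp1, a factor of large subunit processing. Nnp-1 signals were 261, 341 and 384 against 621, 977 and 799 in the wild type and 275, 292 and 376 against 732, 876 and 554 in the mutant (probe set 146333_at). The groups were separate and the decreases, 2.39-fold and 2.25-fold, were called (adjusted p = 0.00148 and 0.00326). pit encodes pitchoune, a DEAD-box helicase known as a Myc target in the fly. It measured 81, 157 and 173 against 239, 298 and 304 in the wild type and 150.2, 119.5 and 133 against 441, 322 and 283 in the mutant (probe set 155149_at). pit was 2.07-fold lower in wild-type and 2.48-fold lower in mutant migratory cells, with no overlap (adjusted p = 0.0167 and 0.00536).

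Non3 is the relative of yeast Rpf2, which brings the small 5S ribosomal RNA into the large subunit. Signals of Non3 were 159.6, 214 and 161 against 339, 385 and 325 in the wild type and 214, 176 and 170 against 284, 331 and 240.3 in the mutant (probe set 151780_at). Ns1, the fly nucleostemin 1, a GTPase of large subunit release, gave 62.3, 46.8 and 51.6 against 133, 115 and 126 and 62.1, 74.9 and 56.6 against 134, 112 and 103 in the mutant (probe set 150045_at). Neither gene had overlapping fractions in either genotype. Both were called in the wild type, at -0.95 and -1.12 (adjusted p = 0.00363 and 0.00836), and missed the threshold in the mutant, at -0.59 and -0.78 (adjusted p = 0.057 and 0.0553). The helicase gene Dbp73D was an estimated 1.77-fold lower in mutant migratory cells with dim signals raised to background. There the limma fit to the signals themselves called it (adjusted p = 0.0375). Its wild-type difference of -0.43 was not called, nor was its second, dimmer probe set (-0.0012 in the mean of both genotypes).

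The other 5 large subunit genes were called in no comparison with the probe sets used. Ns2 and Ns3, GTPases of large subunit maturation, differed by -0.53 and -0.33 in the mean of both genotypes (adjusted p = 0.0642 and 0.0975), and peng, related to a yeast RNA-binding assembly factor, by -0.42 (adjusted p = 0.0928). eIF6, which keeps the new large subunit from joining the small one, was the exception in sign, with 0.16 in the wild type and 0.032 in the mean (SE 0.318, adjusted p = 0.961), and its signals of 106, 156 and 112 against 154, 51 and 159 in the wild type overlapped. The second, dimmer probe set of eIF6 ran the other way, with -1.12 in the wild type, -1.33 in the mutant and -1.22 in the mean of both, and was called in the mean (adjusted p = 0.00827). The helicase gene Dbp45A exceeded background by its mean in 1 of 4 groups, with -0.69 in the mean and an SE of 0.423.

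**Figure D2:**
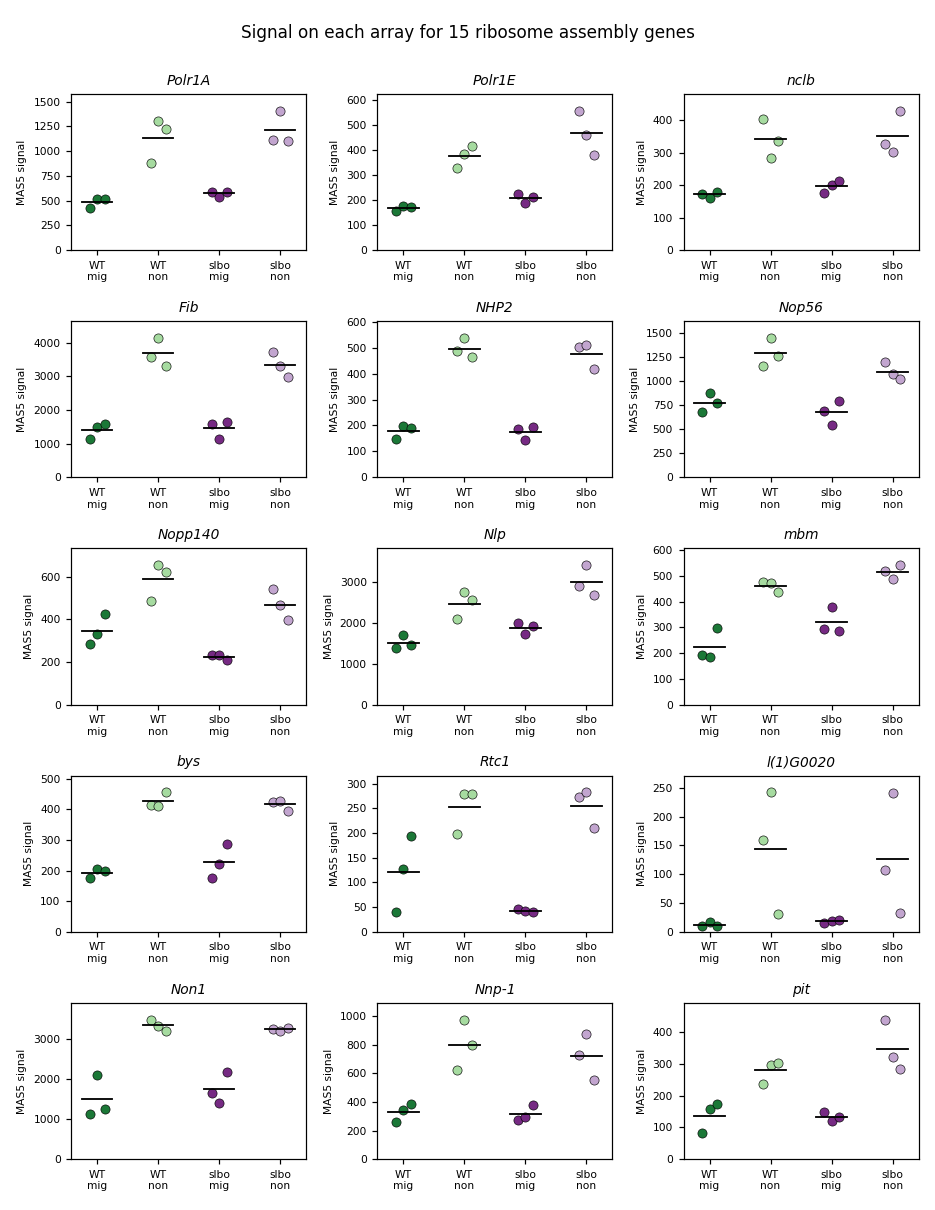
MAS5 signal on each array for 15 of the genes described, with a line at the mean of each group (WT, wild type; slbo, slbo mutant; mig, migratory; non, nonmigratory; 3 arrays each, linear axes from 0). In each of the 15 panels the migratory values lie below the nonmigratory values of the same genotype, with Rtc1 in the wild type the closest.

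The 33 genes varied together across the groups more than within them. Over the 12 arrays the median of their 528 pairwise correlations was 0.676, and 503 were positive. Once each group's mean was removed, the median fell to 0.0617 and 296 were positive. NHP2 followed the mean of the other 32 genes most closely (r = 0.990 over 12 arrays), ahead of Fib (0.973), bys (0.953) and Polr1A (0.951). eIF6 did not follow it (r = -0.048), and Dbp45A (0.396), RIOK2 (0.427) and Nop60B (0.475) followed it loosely. The arrays of these correlations share groups, so the values are descriptions only. The median level of the 33 genes, each centred on its mean over the 12 arrays, lay between -0.62 and -0.32 on the 6 migratory arrays and between 0.36 and 0.56 on the 6 nonmigratory arrays, so no array of either fraction reached the other.

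Between genotypes no ribosome assembly gene was called. In mutant against wild-type migratory cells 0 of 33 were called, where 1.94% of all features were called in either direction, and the median was 0.034. In nonmigratory cells 0 of 33 were called (0.668% of all features), with a median of -0.041. The interaction, which tests whether the difference between fractions itself differs between genotypes, had 0 calls among the 33 genes and 0 among all 8978 features (0% of them), with a median of 0.034. At an unadjusted p under 0.05 there were 4 genes in migratory cells, 2 in nonmigratory cells and 0 in the interaction. Over all 8978 features there were 1175, 826 and 603. Genes called in the fraction comparison of 1 genotype alone are therefore not shown to differ between genotypes.

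The 4 genes with an unadjusted p under 0.05 in migratory cells moved in both directions. Nopp140, with the array values given above, was lower on all 3 mutant arrays (log2 -0.60, 95% interval -0.98 to -0.22, adjusted p = 0.112). Rtc1 was lower by the mean and overlapped between genotypes (-1.13, interval -1.96 to -0.29, adjusted p = 0.192). mbm and Nlp had higher means in the mutant (0.52 and 0.31, adjusted p = 0.194 and 0.313), with the values of mbm overlapping and those of Nlp separate. Without the first wild-type migratory array 1 gene, Rtc1, was called, and without the third 1 gene, mbm, was called. In nonmigratory cells the 2 genes were Polr1C (-0.49, adjusted p = 0.511) and Nlp (0.28, adjusted p = 0.523).

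The 95% intervals, not adjusted for the number of genes, give the range of genotype differences compatible with the arrays. Nlp had the lowest SE of the 33 genes in migratory cells (0.130), and its interval of 0.030 to 0.58 did not include 0. For 3 of the genes with large fraction differences, the mutant minus wild-type difference in migratory cells was 0.046 for Fib (95% interval -0.29 to 0.38), -0.030 for NHP2 (-0.39 to 0.33) and 0.25 for Polr1A (-0.084 to 0.58). The interaction was 0.19 for Fib (-0.29 to 0.66), 0.034 for NHP2 (-0.48 to 0.55) and -1.15 for Rtc1 (-2.32 to 0.027), the last having the lowest p of the 33 genes (unadjusted 0.0549, adjusted 0.738). The median SE of the 33 genes was 0.220 for a genotype difference and 0.312 for the interaction. With 3 arrays a group, differences between genotypes well above these SE could be missed. Nopp140 in migratory cells, at -0.60 with an SE of 0.177, was not called.

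**Figure D3:**
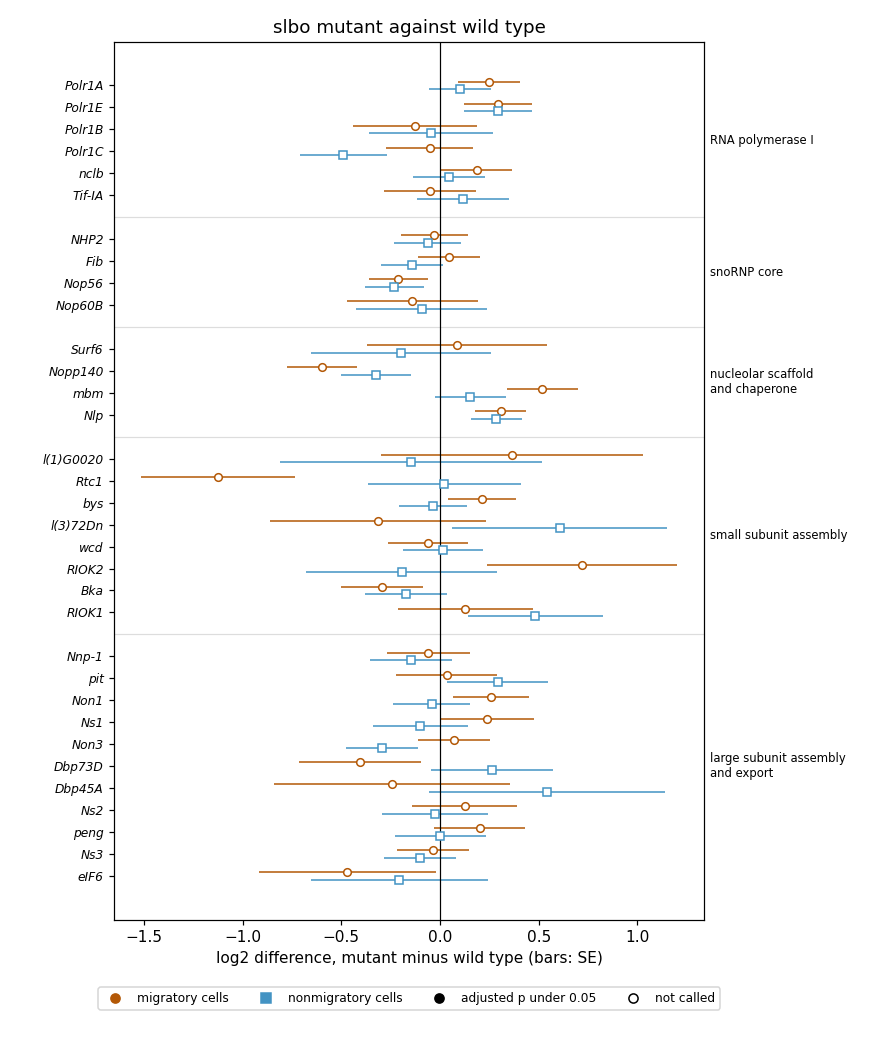
Log2 difference of slbo mutant minus wild type for the same 33 genes, with SE as bars, in migratory cells (orange circles) and in nonmigratory cells (blue squares). Every symbol is open because no gene had an adjusted p under 0.05, and the values lie on both sides of 0.

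Further genes of the pathway, from lists also drawn up with earlier results of these data known, were set beside these. Of 28 other ribosome assembly genes tested, 18 were called lower and 0 higher in the mean of both genotypes, with a median of -0.79, where 9.89% of all features were called lower and 8.04% higher. Gar1, an H/ACA core protein, fell by 1.09 on the log2 scale (SE 0.105, adjusted p = 6.58e-06), LTV1, an export factor of the small subunit, by 1.05 (SE 0.115, adjusted p = 2.02e-05) and RpLP0-like by 1.28 (SE 0.157, adjusted p = 5.43e-05). Of 10 RNA polymerase III genes 3 were called lower, with a median of -0.48, and of 4 RNA polymerase II core genes 3 were called lower (median -0.61), among them Polr2E, a subunit common to all 3 nuclear RNA polymerases, which fell by 1.10. Of 28 translation initiation factors 17 were called lower and 0 higher, with a median of -0.35.

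For the structural proteins of the cytosolic ribosome the median was nearer 0. Their probe sets were also much brighter, with mean log2 levels per array of 12.6 to 13.1, against 6.72 to 7.88 for the other assembly genes. Whether this brightness affected the differences was not tested. Of 29 cytosolic ribosomal protein genes tested 2 were called lower and 0 higher in the mean of both genotypes, 0 were called in either genotype alone, and the median was -0.13. Their difference was negative for 28 of 29 in the wild type (median -0.22), 17 in the mutant (median -0.035) and 25 in the mean. Of all features 48.9%, 47.6% and 47% were negative. Mitochondrial ribosomal protein genes, which make a separate ribosome, were called lower for 46 of 64 with a median of -0.55. Of 16 tested Myc and TOR growth regulators 1 was called higher and 2 lower, with a median of -0.12, a share of calls near the 17.9% of all features called in either direction. The 3 genes were brat, which restrains growth and Myc in other fly tissues (log2 0.67, SE 0.104, adjusted p = 0.000367), TAF1C-like, a factor of RNA polymerase I initiation (-0.90, adjusted p = 0.0447), and chico, the insulin receptor substrate (-0.44, adjusted p = 0.0495). TAF1C-like averaged 23.0 in wild-type migratory cells, below the background of 36.7 there. Myc, Tor, Rheb and Thor were not analysed here. In mutant against wild-type migratory cells, 0 genes of the assembly, polymerase, initiation factor, growth regulator and cytosolic ribosomal protein lists were called, and 1 of the 64 mitochondrial ribosomal protein genes was called lower.

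**Figure D4:**
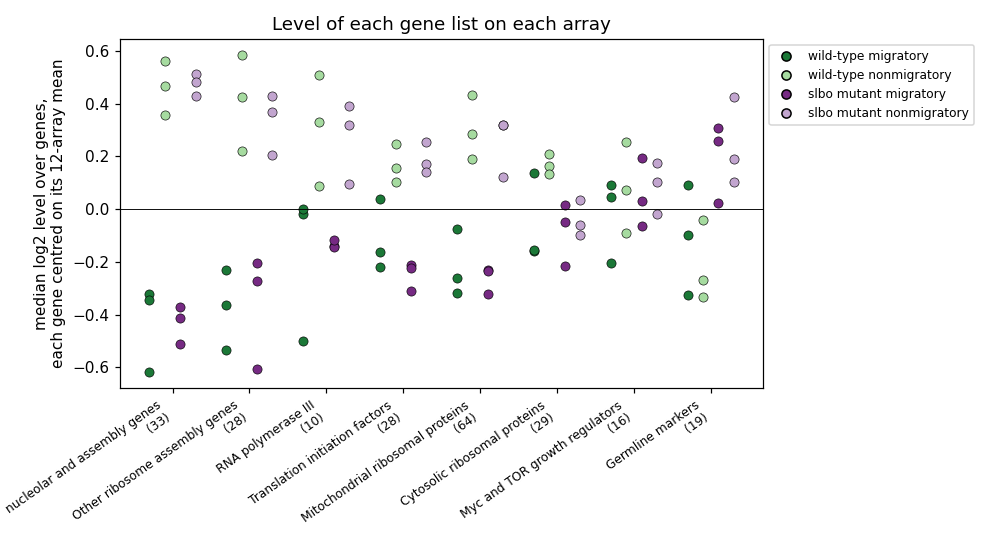
Median log2 level over the genes of each list on each array, each gene centred on its mean over the 12 arrays; the number of genes is in brackets and each point is 1 array of the group shown by colour. The ribosome assembly lists split the migratory arrays (-0.62 to -0.32 for the 33 genes) from the nonmigratory arrays (0.36 to 0.56), while cytosolic ribosomal proteins (-0.22 to 0.14 against -0.10 to 0.21), growth regulators and germline markers overlap. Mitochondrial ribosomal proteins (-0.32 to -0.077 against 0.12 to 0.43), translation initiation factors (-0.31 to 0.036 against 0.10 to 0.25) and RNA polymerase III are also split.

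The separation of the arrays by fraction was not limited to the assembly lists, and the medians of 4 RNA polymerase II core genes (-0.45 to 0.029 against 0.080 to 0.53) and of 7 hemocyte and fat body markers (-0.60 to 0.067 against 0.16 to 0.72) were separate too. Among markers of other cells in the ovary, of 19 germline markers tested 1 was called higher (BicD, 0.47) and 2 lower (yps, -0.64; spn-E, -0.57) in the mean of both genotypes, and the median was 0.13. That share of calls was also near the 17.9% of all features. Summed germline signals over 20 probe sets ran from 3652 to 4538 on wild-type migratory and from 3650 to 4151 on wild-type nonmigratory arrays, and from 3900 to 4797 and 3958 to 5144 in the mutant. Of 19 follicle cell markers 5 were called higher and 0 lower, with a median of 0.046. Muscle markers of the ovary sheath were called higher for 4 of 10 and lower for 0, with a median of 0.56, and their summed signals over 13 probe sets ran from 6150 to 8258 in wild-type migratory and 3916 to 6419 in wild-type nonmigratory cells. The muscle markers moved the opposite way to the assembly genes, and their part in the result was not tested.

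Of the hemocyte and fat body list, 2 of 7 tested genes, the collagen IV genes vkg and Col4a1, were called lower, with log2 differences of -1.95 and -1.56, and 0 were called higher. Summed signals of the list over 12 probe sets were 1822 to 2280 against 5672 to 8180 in the wild type. In the mutant they were 2496 to 2701 against 6901 to 7747. The 2 collagen genes made up most of these sums. In the wild type Col4a1 averaged 1147 against 3688 and vkg 651 against 2794. In the mean of both genotypes 5 of the 7 differences were negative. The other 2, srp (0.68) and Pxn (0.10), were higher in migratory cells and not called. The defining hemocyte genes Hml, Sr-CI, eater and NimC1 were below the filter with group means of at most 20. Of 22 gut markers 7 were called higher in migratory cells and 0 lower in the mean of both genotypes, with a median of 0.58. The 7 were Jon99Fi, Jon99Fii, Jon65Ai, Jon65Aii, Jon25Biii, LysS and Npc2d. Summed gut signals over 23 probe sets were 4893 to 13485 in wild-type migratory, 4528 to 10455 in wild-type nonmigratory, 35273 to 48232 in mutant migratory and 18035 to 24641 in mutant nonmigratory cells. Between genotypes 11 of the 22 were called higher in mutant than in wild-type migratory cells (median 1.98), a comparison in which 0 of the 33 assembly genes were called, and the part of these markers in the result was not tested.

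RNA quality by the GAPDH control was lower on average in the migratory fraction, as were the assembly genes. The ratio of 5' to 3' signal of the GAPDH control probe sets, which falls when RNA is degraded or incompletely copied, was 0.0854 (SD 0.00839, n = 3) in wild-type migratory and 0.175 (SD 0.0217) in wild-type nonmigratory cells, and 0.119 (SD 0.0288) against 0.165 (SD 0.0272) in the mutant. The wild-type values did not overlap, and 1 mutant migratory array, at 0.150, lay above 1 mutant nonmigratory array, at 0.134. The actin ratio overlapped between the wild-type fractions, at 0.230 to 0.384 against 0.230 to 0.333, and so did that of eIF-4a, at 0.123 to 0.195 against 0.141 to 0.169. In the mutant both were lower in migratory cells without overlap, at 0.165 to 0.305 against 0.308 to 0.394 for actin and 0.0861 to 0.156 against 0.163 to 0.226 for eIF-4a. The part of RNA quality in the result was not tested beyond the covariate.

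With the GAPDH ratio as a covariate the median over the 33 genes was -0.82 in the wild type, -0.93 in the mutant and -0.88 in the mean of both, but the calls fell to 0, 6 and 2. Called in the mutant were Polr1A, Polr1E, nclb, Fib, NHP2 and Non1, and in the mean Fib (-1.25, adjusted p = 0.0421) and NHP2 (-1.38, adjusted p = 0.0396). Over all 8978 features this fit called 6, 154 and 44. The estimates of l(1)G0020 (-0.49), Nopp140 (-0.51), Non3 (-0.53) and mbm (-0.60) moved towards 0 and those of nclb (-1.23) and Non1 (-1.36) away from it. In the wild type the ratio and the fraction cannot be told apart, since the ratios of the fractions are separate.

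**Figure D5:**
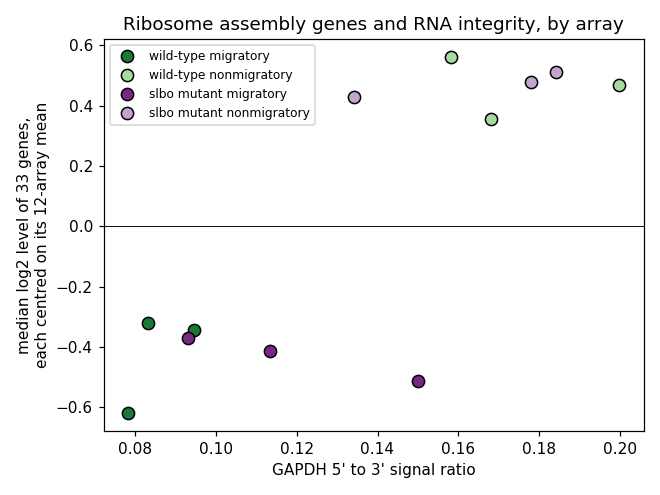
Median log2 level of the 33 genes, each centred on its mean over the 12 arrays, against the 5' to 3' signal ratio of GAPDH, with each point 1 array. The migratory arrays lie at -0.62 to -0.32 and the nonmigratory arrays at 0.36 to 0.56, and the 2 fractions of the mutant overlap in the ratio (0.134 to 0.150) but not in the level.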

How the data were processed

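Total RNA of 12 samples, 4 groups of 3, was measured on arrays of 14010 probe sets. The deposited values are MAS5 signal intensity per probe set on a linear scale, per the submitters' processing notes, which give no version, and the authors had scaled each array to a trimmed mean of about 150. Array scans were not used here, and the genome build behind the probe sets is not given in the sources used here, so no coordinates are printed.

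Of the probe sets 44 were controls, 12443 had 1 gene, 327 several and 1196 none in the platform annotation, and symbols were checked against RefSeq gene names with 0 updated. The log2 of each signal was taken after 5% of the trimmed mean, 7.50, had been added. Features above the 40th percentile on at least 3 arrays were kept, 8978 of 12367, comprising 7921 genes and 1057 other probe sets. A linear model of limma 3.58.1 (R 4.3.3) estimated the 4 group means with an intensity trend and 8 residual degrees of freedom, and 6 comparisons were each adjusted by Benjamini-Hochberg over all features. The fit was tested on simulated data. Background was the 95th percentile of 23 controls for sequences not in the sample, averaged over a group's arrays. For Surf6, l(1)G0020 and Dbp73D, with a group mean at or below it, a cautious estimate of the fold was printed. That estimate was computed with each dim signal raised to its array's percentile, and it does not allow for the spread between arrays. The adjusted p-values are those of the limma fit without it. Differences of other dim genes, such as RIOK2, Dbp45A and TAF1C-like, are printed as fitted. Python 3.11.15 with pandas 2.3.3 and matplotlib 3.10.9 drew the figures.

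The genes and the other lists were chosen with earlier results of these data known. Named with a value on every array were the called genes, up to 20, with the lowest adjusted p in any comparison, and up to 3 called genes of each other list by lowest p. The growth regulator and marker genes outside that rule were chosen after their values were seen. The alternatives were quantile normalization, median centring, other filters and added constants, no intensity trend, array weights, means over probe sets, fits of 2 groups, a replicate block, the GAPDH ratio as a covariate and leaving out each array. Arrays sharing a replicate number did not deviate together (r between -0.076 and 0.083 over 18 pairs), so the numbers were not used as pairs. The number of arrays limits the precision, with a median SE of 0.302 over all features for a comparison of 2 groups. No promoter or protein sequences were used here.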

Additional observations from a re-analysis of the deposited data

Results flagged for a closer look

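Probe sets that stood outside the counts also carried a signal in the comparison of migratory with nonmigratory cells. The probe set 146098_at, annotated to both pins and hoip, differed by -1.18 on the log2 scale in the wild type (SE 0.117, Benjamini-Hochberg adjusted p = 3.19e-05 by limma), by -0.87 in the mutant (adjusted p = 0.000552) and by -1.03 in the mean of both (adjusted p = 1.62e-06). Its signals were 1112, 1282 and 1409 in wild-type migratory and 2729, 3249 and 2669 in wild-type nonmigratory cells, and 1389, 1348 and 1404 against 2718, 2588 and 2299 in the mutant, with no overlap. hoip encodes a core protein of box C/D particles and pins a protein of spindle orientation, and the probe set cannot tell them apart.

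Both further probe sets of Tif-IA were called more often than the brighter one used. Probe set 146623_at differed by -0.95 in the wild type, -0.996 in the mutant and -0.97 in the mean of both (SE 0.218 in each genotype), and was called in all 3. Probe set 146622_at differed by -1.14 in the wild type (adjusted p = 0.0399) and by -0.92 in the mean (adjusted p = 0.0114). The second probe set of eIF6, 142234_at, differed by -1.22 in the mean (SE 0.289, adjusted p = 0.00827), where the brighter one showed 0.032. The second probe sets of RIOK1 and Ns3 showed 0.38 and 0.21 in the mean and were not called.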

How the results depend on the processing

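For the 20 genes given with all array values, all 240 estimates with an array left out and all 200 under the other settings kept their direction and call in the mean of both genotypes. With the GAPDH ratio as a covariate 18 of 20 lost the call and 2, NHP2 and Fib, did not. The 20 were chosen by lowest adjusted p in the same data, which favours keeping the call. Outside the 20, Tif-IA and Dbp73D lost the call in the mean in some fits with an array left out. Dbp73D also lost it with the 60th percentile filter and with means over probe sets. The GAPDH covariate left 0 calls of 33 in the wild type, 6 in the mutant and 2 in the mean, with a wild-type median of -0.82. Over all 8978 features it left 6, 154 and 44 calls. The ratio is nearly separate between the fractions, and the cause was not tested. Of the calls in 1 genotype, with an array left out, 4 of 18 in the wild type and 8 of 19 in the mutant were lost in at least 1 of 6 fits. Counts over all features are not given here for fits with an array left out or with a replicate block. Fewer calls among these genes in such fits therefore cannot be told from fewer calls over all features. Leaving out single arrays gave 14 to 18 calls in the wild type, 12 to 16 in the mutant, 22 to 25 in the mean and 0 to 1 between genotypes in migratory cells. The same gave medians of -1.01 to -0.73 in the wild type, -0.91 to -0.83 in the mutant, -0.093 to 0.099 between genotypes in migratory cells and -0.053 to 0.15 for the interaction. An added constant of 20% gave medians of -0.82, -0.69 and -0.76 in the wild type, the mutant and the mean. Centring arrays on their medians, which differ by 0.11 between genotypes in migratory cells, turned that median from 0.034 to -0.080. Arrays that share a replicate number did not deviate together, and with a replicate block 18, 17 and 24 genes were called in the wild type, the mutant and the mean, and 0 between genotypes. With 3 arrays a group and dim probe sets such as l(1)G0020 and Dbp45A (SE 0.663 and 0.598 in 1 genotype), small differences were not detectable. The covariate was fitted for the 3 fraction comparisons and the fit of 2 groups for the 4 comparisons of 2 groups.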
